A study of Mus musculus with 6 samples.

Results

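The lysosome genes of muscle stem cells were described here as 36 genes taken by symbol from the 49652 gene rows of 6 RNA-seq libraries. They comprise the MiT/TFE transcription factors that control lysosome formation, 7 proteins of the lysosomal membrane and of cholesterol export, 10 proteases, 8 glycosidases and sulfatases, 3 lipid-handling proteins of the lumen and 5 proteins of the proton pump. The rule itself uses symbols and no measured value, all 36 genes had reads, and all passed the filter on low counts. The KO group (n = 3 libraries) came from Cre-positive OPA1-Pax7-CreERT2 mice and the WT group (n = 3 libraries) from Cre-negative mice of the same design, all 8 to 10 weeks old. The Pax7 promoter drives a tamoxifen-inducible Cre in muscle stem cells. Both groups had tamoxifen by gavage for 5 days, were not injured, and were sampled 3 days later, when hindlimb cells positive for alpha-7 integrin and VCAM and negative for Sca1, CD45 and CD31 were sorted. Cre therefore separates the groups together with the Opa1 deletion, and the labels do not say how many animals made up a library, so p-values measure the spread between these libraries. The question the series poses is how the loss of OPA1, the GTPase that fuses the inner mitochondrial membrane, alters quiescent muscle stem cells.

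Lysosomes are acidic compartments in which hydrolases break down proteins, sugars, lipids and the cargo that autophagy delivers. TFEB, TFE3 and MITF bind E-box sequences with the core CACGTG near many lysosomal genes, and the kinase complex mTORC1, itself recruited to the lysosome surface, keeps TFEB and TFE3 in the cytosol when nutrients are ample. In quiescent muscle stem cells, autophagy and lysosomal breakdown are known to maintain the stem cell state.

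The promoter sequences below show where such E-boxes lie near transcription starts of some members. RefSeq promoter windows on GRCm38.p6, from 250 bases before to 50 bases after a transcription start, were available for 30 of the 36 genes, in 37 windows. CACGTG, a palindrome and so the same on both strands, was present for 13 of the 30 genes (43.3%), against 8.09% of all 27025 genes in the table. Of single windows, 35.1% of the members' and 7.15% of all 32851 held it. The M-box-like heptamer TCATGTG, searched on both strands and unable to overlap CACGTG, was found for 5 of the 30 genes (16.7%) and for 4.31% of all genes. The full palindromic CLEAR consensus, which contains CACGTG, was found for 0 of the 30 genes and for 0.37% of all genes. A match is a description of the letters and not evidence of a bound site. The list was drawn up as lysosome and TFEB target genes, so a share above that of all genes is not independent support. Lamp1 is shown because it has 4 copies within 70 bases of its start, and Lamp2 because its window has none. Mcoln1, Ctsd, Glb1, Gaa, Ctsf and Atp6v1a are shown because they carry the same 6 letters across several classes. Mcoln1 and Ctsd each have another copy in the window, at -45 and -245 from the start, outside the stretch shown. Capitals mark CACGTG, and each sequence reads 5′ to 3′ on the gene's strand. The stretches of Mcoln1 and Ctsd are 30 bases long and overlap an annotated exon, although they lie before the RefSeq start used here.
Lamp1, chr8:13159091-13159160, plus strand: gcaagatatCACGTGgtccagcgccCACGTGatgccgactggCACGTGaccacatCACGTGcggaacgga
Mcoln1, chr8:3500436-3500465, plus strand: ggtcgcgcttgtCACGTGttcagttcaggc
Ctsd, chr7:142387908-142387937, minus strand: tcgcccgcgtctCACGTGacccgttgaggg
Glb1, chr9:114401013-114401052, plus strand: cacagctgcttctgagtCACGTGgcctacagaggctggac
Gaa, chr11:119267808-119267847, plus strand: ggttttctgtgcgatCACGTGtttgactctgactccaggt
Ctsf, chr19:4855070-4855109, plus strand: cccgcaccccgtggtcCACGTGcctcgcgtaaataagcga
Atp6v1a, chr16:44139365-44139404, minus strand: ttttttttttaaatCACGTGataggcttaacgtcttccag
Lamp2, chrX:38456461-38456530, minus strand: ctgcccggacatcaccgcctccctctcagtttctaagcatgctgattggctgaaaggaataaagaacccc

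Libraries held 41410136 to 56606886 reads counted in genes. Opa1, the targeted gene, stood at 17.5, 34.4 and 27.1 CPM in KO and at 68.2, 31.4 and 68.8 CPM in WT (CPM, gene reads scaled to a common library size after TMM normalization, the unit of all levels below unless a length is named). The library labelled WT replicate 2 lay inside the KO range, and Opa1 itself did not pass over all genes. By edgeR its log2 fold change was -1.09 (SE 0.37, unadjusted p 0.0215 and adjusted p 0.999976). The exact two-sided permutation p was 0.2, where 3 against 3 libraries cannot go below 0.1. All 10 muscle stem cell markers examined were detected in every library, with summed levels of 7556 to 9964 CPM in KO and 8305 to 12000 CPM in WT. The 14 leukocyte markers summed to 4.86 to 19.4 CPM in KO and 4.66 to 16.2 CPM in WT. Other cell type lists summed higher. Endothelial markers had 111 to 184 CPM in KO and 109 to 195.5 CPM in WT. Mature fibre markers had 231 to 515 CPM in KO and 262 to 653 CPM in WT. For Schwann cell markers it was 43.3 to 121 and 13.4 to 129 CPM. Fibro-adipogenic markers had 717.5 to 919 and 884 to 1342 CPM, with Dpt alone at 600 to 1196 CPM. Pecam1, which encodes the excluded CD31, had 4.36 to 22.5 CPM, and Ly6a, which encodes the excluded Sca1, had 4.62 to 19.2 CPM. Cell cycle markers differed within both groups, at 490.1, 48.1 and 39.5 CPM in KO replicates 1 to 3 and 236, 38.5 and 236 CPM in WT replicates 1 to 3. Immediate early genes summed to 12980, 38470 and 34620 CPM in KO and to 15820, 30880 and 5622 CPM in WT.

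Lysosomal mRNA levels overlapped between KO and WT cells. The 36 genes summed to 9681, 8496 and 7885 CPM in KO replicates 1 to 3 and to 9861, 8011 and 8591 CPM in WT replicates 1 to 3. WT replicate 1 was the highest library and KO replicate 3 the lowest. Of the 36 genes, 17 had a positive and 19 a negative log2 fold change (KO minus WT), with a median of -0.0012, against a median of 0.0062 over all 18832 genes tested. In edgeR's quasi-likelihood test 0 of the 36 were called at a Benjamini-Hochberg adjusted p under 0.05 (0% of all genes tested were), each with an adjusted p of 0.999976, and 0 had an unadjusted p under 0.05 (2.09% of all genes tested did). DESeq2 and limma voom called 0 of the 36 as well, and without the library labelled WT replicate 2 the count was also 0. Without WT replicate 1, 3 members (Tfe3, Npc1 and Ctss) had an unadjusted p under 0.05 by edgeR, where 3.50% of all genes did, and 0 were called. In bulk samples, fewer cells of a type and less RNA per cell cannot be told apart.

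The measurements were precise enough to limit the size of a difference between the libraries labelled KO and WT for most of these genes. WT replicate 2, whose Opa1 level lay inside the KO range, is counted as WT here. For 32 of the 36 (88.9%) the whole 95% interval lay within a 2-fold change in either direction, against 44.6% of all genes tested, and for 16 (44.4%) it lay within a 1.5-fold change, against 19.8%. The exceptions at 2-fold were Tfeb, Sgsh, Ctsk and Ctss, all with 493 counts or fewer in any library. Most members are abundant. Of genes at or above the lower quartile of the members' mean level, 90.2% had the interval within a 2-fold and 53.2% within a 1.5-fold change. That set leaves out levels as low as those of the lowest members. The median absolute log2 fold change was 0.10 for the members and 0.11 for those 6287 genes.

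**Figure D1:**
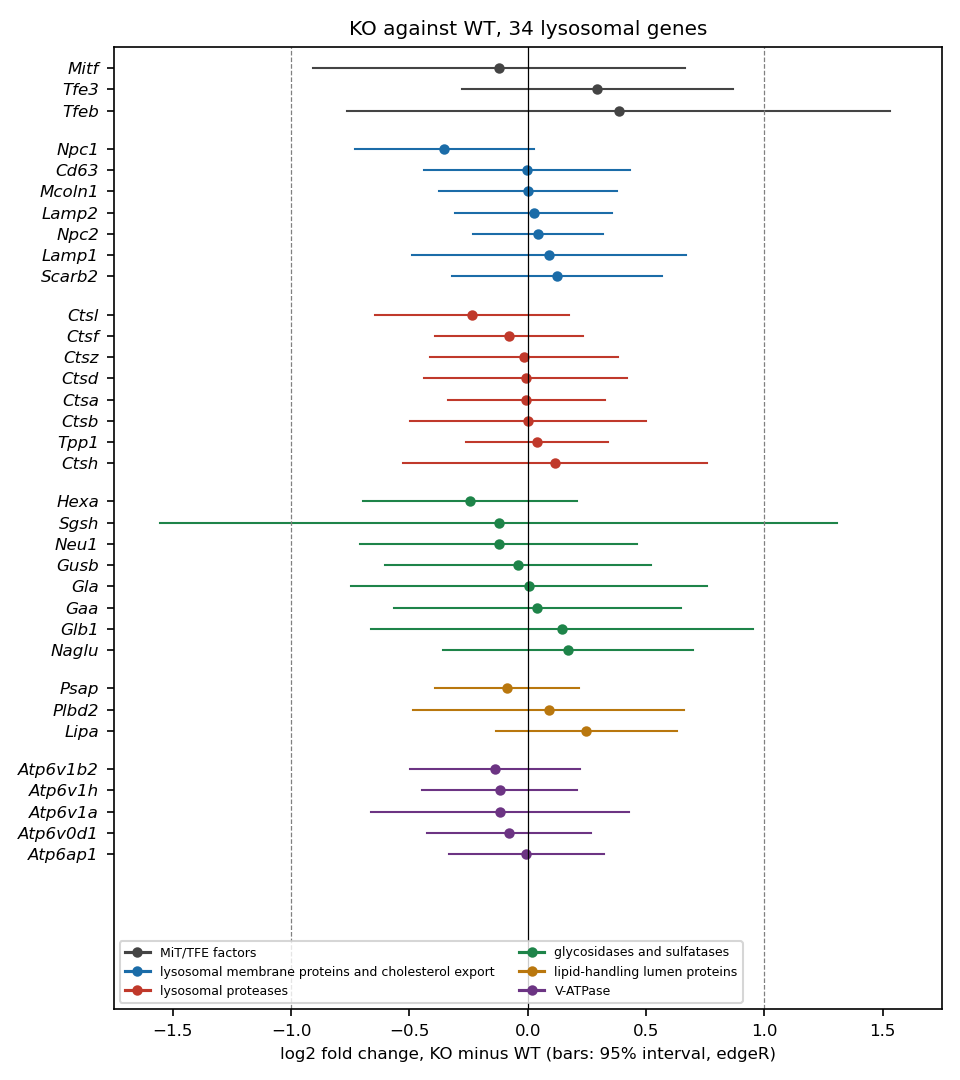
Log2 fold change (KO minus WT) of 34 lysosomal genes, with points for the edgeR estimate and bars for its 95% interval (n = 3 libraries per group, colours by class, dashed lines at a 2-fold change). Every interval crosses 0 and those of Tfeb and Sgsh cross a dashed line. Ctss and Ctsk, whose intervals reach 7.96 and 3.73, are left out.

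Levels of the genes relative to each other were compared per length, as CPM per kilobase of annotated exon. Cd63, a tetraspanin of late endosomes and lysosomes, was the most abundant at 648 in KO and 649 in WT. Psap, the precursor of the saposins that present lipids to hydrolases, followed at 389 in KO and 413 in WT. Ctsz, a carboxypeptidase, came next at 359 in KO and 363 in WT. The aspartic protease gene Ctsd stood at 118 in KO and 119 in WT, although 34.4% of its annotated exon length overlaps another gene on the same strand, where reads may not be assigned. At the low end were the transcription factor genes Tfe3 (3.54 in KO, 2.88 in WT), Tfeb (1.26 in KO, 0.961 in WT) and Mitf (0.698 in KO, 0.760 in WT). They ranked 29, 32 and 34 of the 36 genes by level per length, with Ctsh, Gla and Sgsh between them and Ctss and Ctsk below.

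**Figure D2:**
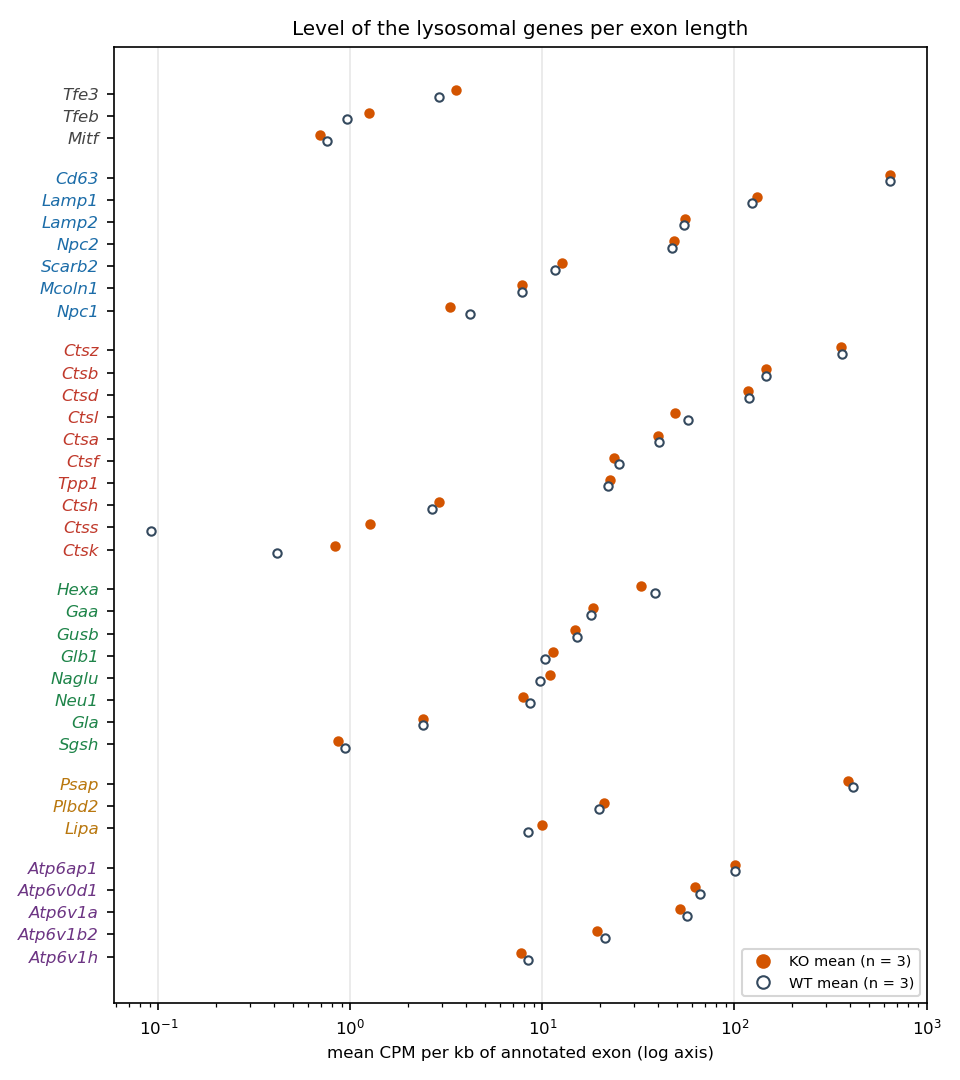
Mean CPM per kilobase of annotated exon (log axis) of each of the 36 genes in KO (filled, n = 3) and WT (open, n = 3), grouped by class and colour. On this axis most pairs of points lie close, from Cd63 at 648 and 649 down to Mitf at 0.698 and 0.760, with Ctss and Ctsk apart. Tfeb (1.26 in KO, 0.961 in WT), Npc1 (3.29 in KO, 4.2 in WT) and Tfe3 (3.54 in KO, 2.88 in WT) are further apart than most.

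Among the MiT/TFE factors, none passed the test. Tfeb (chromosome 17, 47737030 to 47792419, plus strand, GRCm38), the principal activator of lysosomal genes, had 4.68, 11.9 and 4.77 CPM in KO and 4.63, 7.60 and 4.11 CPM in WT. Replicate 2 was the highest library in both groups, and the groups overlapped. The log2 fold change of Tfeb was 0.38 (SE 0.48, 95% interval -0.76 to 1.53), and -0.22 without KO replicate 2. Tfe3 (chromosome X, 7762560 to 7775202, plus strand), a paralog with overlapping targets, had 31.7, 35.7 and 30.8 CPM in KO and 36.2, 22.8 and 21.1 CPM in WT. All 3 KO libraries were thus above 2 of the WT libraries, and WT replicate 1 was the highest of all. Its log2 fold change was 0.29 (SE 0.24, unadjusted p 0.263 by edgeR), 0.15 without WT replicate 3 and 0.58 without WT replicate 1 (unadjusted p 0.0214, adjusted p 0.999574 by edgeR). Mitf, which in melanocytes directs pigment cell genes, had 3.61, 4.56 and 4.81 CPM in KO and 3.80, 4.63 and 5.68 CPM in WT, with a log2 fold change of -0.12 (SE 0.33), or 0.04 without WT replicate 3. By counts, Tfe3 was the most abundant of the family in every library.

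Of the membrane and cholesterol export genes, Npc1 was the 1 member of all 36 whose KO and WT libraries did not overlap. It encodes the transporter that moves cholesterol out of the lysosome and is mutated in Niemann-Pick disease type C. Npc1 had 37.4, 35.4 and 38.8 CPM in KO and 40.3, 50.4 and 52.0 CPM in WT, or 37.2 ± 1.72 against 47.5 ± 6.35 CPM (SD, n = 3 each). Every KO library was below every WT library, by a narrow margin against WT replicate 1. edgeR estimated a log2 fold change of -0.35 (SE 0.16, 95% limits -0.73 and 0.02, unadjusted p 0.0627 and adjusted p 0.999976 by edgeR), and leaving out single libraries moved it between -0.46 and -0.28. Over all genes tested, 3.12% lay wholly lower in KO without overlap and 3.43% wholly higher, or 6.55% in either direction, so 1 of 36 is not above the background. Npc2, the soluble protein that hands cholesterol to NPC1 in the lumen, had 253, 282 and 259 CPM in KO and 264, 242 and 264 CPM in WT. It varied least of all members across the 6 libraries, by 1.16-fold between the lowest and the highest, and its log2 fold change was 0.04 (SE 0.12). Npc1 and Npc2 thus gave different values although their proteins act in sequence, and this difference was not tested.

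The other membrane proteins centred near 0. Scarb2, which carries the enzyme glucocerebrosidase to the lysosome, had 77.9, 81.3 and 80.5 CPM in KO and 88.7, 75.9 and 55.4 CPM in WT. The KO libraries lay within the WT range, and the log2 fold change was 0.12 (SE 0.19), or -0.04 without WT replicate 3. Lamp1 and Lamp2, the main glycoproteins that line the membrane, had log2 fold changes of 0.09 (SE 0.24) and 0.02 (SE 0.14). For Mcoln1, the calcium channel whose opening activates calcineurin and TFEB, the means were 59.0 ± 9.02 CPM in KO and 59.0 ± 4.09 CPM in WT (SD, n = 3 each). Cd63 averaged 2386 ± 479 CPM in KO and 2390 ± 272 CPM in WT (SD, n = 3 each). All 7 genes of this class had 95% intervals within a 2-fold change.

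Proteases gave the members with the largest and least certain values, both of them from few counts. Ctss, a cysteine protease of antigen-presenting cells, had 14, 153 and 68 counts in KO and 21, 0 and 0 counts in WT, or 0.281, 3.69 and 1.20 against 0.371, 0 and 0 CPM. KO replicate 1 was below WT replicate 1, so the groups overlapped, and WT replicates 2 and 3 had none. The fitted log2 fold change of 3.75 (SE 1.78, unadjusted p 0.0729 and adjusted p 0.999976 by edgeR) rests in WT on the 21 counts of replicate 1. It was 2.54 without KO replicate 2 and 4.26 without KO replicate 1, and without WT replicate 1, where both remaining WT libraries are at 0, no fold is given (unadjusted p 0.00652 and adjusted p 0.999574 by edgeR). Ctsk, the collagen-degrading cathepsin of osteoclasts and fibroblasts, had 16, 55 and 120 counts in KO and 3, 67 and 23 counts in WT, with a log2 fold change of 1.00 (SE 1.15), or 0.39 without KO replicate 3 and 2.37 without WT replicate 2. Some leukocyte markers had reads as well. Lyz2, the lysozyme of macrophages and the most abundant of the 14 examined, had 100, 314 and 518 counts in KO and 130, 303 and 128 counts in WT. Ptprc, which encodes the excluded CD45, had 0, 27 and 30 counts in KO and 0, 0 and 18 counts in WT, and Adgre1, which encodes a surface receptor that marks mouse macrophages, had reads in KO replicate 3 alone. Of the 14 markers, 10 had a higher mean in KO, while C1qa, C1qb, Mrc1 and Cx3cr1 had a higher mean in WT. Laptm5, a lysosomal membrane protein of blood cells, had 33, 32 and 14 counts in KO and 0, 1 and 0 counts in WT (unadjusted p 0.00261 and adjusted p 0.999976 by edgeR). Tyrobp, a signalling adaptor of myeloid cells, had 15, 24 and 42 counts in KO and 10, 12 and 0 counts in WT. These 2 markers did not overlap between the groups. Neither did Itgam in CPM, with 3, 2 and 2 counts in KO and 1, 1 and 1 in WT. Itgam did not pass the filter. All of them were higher in KO, where 3.43% of all genes tested lay wholly higher. Of the 14 markers, 5, 5 and 0 were at 0 in KO replicates 1 to 3 and 5, 3 and 7 in WT replicates 1 to 3, and the part of such cells in the Ctss values was not tested.

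The abundant cathepsins did not separate the groups. Ctsl, a cysteine endopeptidase, had 283, 326 and 342 CPM in KO and 317, 346 and 456 CPM in WT. WT replicate 3 was the highest library, and the log2 fold change was -0.24 (SE 0.17), or -0.07 without it. An antisense gene covers 26.8% of the annotated exon length of Ctsl, and the strand setting of the counting is not given in the sources used here. Ctsb, the most abundant cysteine cathepsin in CPM, averaged 879 ± 82.8 CPM in KO and 880 ± 243 CPM in WT (SD, n = 3 each), and its 95% interval ran from -0.50 to 0.50. Ctsd averaged 277 ± 32.3 CPM in KO and 279 ± 58.6 CPM in WT (SD, n = 3 each). The log2 fold changes were -0.01 for Ctsa, which protects neuraminidase and beta-galactosidase in a complex, -0.02 for Ctsz, -0.08 for Ctsf, 0.04 for Tpp1, a tripeptidyl peptidase lost in a childhood form of neuronal ceroid lipofuscinosis, and 0.12 for Ctsh, an aminopeptidase. Their standard errors were between 0.13 and 0.27.

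Glycosidases and sulfatases, which strip sugars and sulfates from glycolipids, glycogen and glycosaminoglycans, split evenly, with 4 positive and 4 negative log2 fold changes and a median of -0.02. Hexa, the alpha subunit of hexosaminidase A, had 75.8, 67.8 and 51.9 CPM in KO and 85.0, 64.4 and 82.0 CPM in WT, with a log2 fold change of -0.24 (SE 0.19), or -0.10 without KO replicate 3 and -0.37 without KO replicate 1. The groups overlapped, and KO replicate 3 was the lowest library. Naglu, which degrades heparan sulfate, had 30.6, 30.9 and 25.4 CPM in KO and 30, 28.3 and 18.9 CPM in WT. Its log2 fold change of 0.17 (SE 0.22) became -0.01 without WT replicate 3. Neu1, a sialidase, had 23.8, 40.0 and 24.6 CPM in KO and 33.7, 27.8 and 34.7 CPM in WT, so KO replicate 2 alone stood above the WT libraries. The log2 fold changes were 0.04 for Gaa, which degrades glycogen and is lost in Pompe disease, 0.15 for the beta-galactosidase gene Glb1, 0.01 for the alpha-galactosidase gene Gla and -0.04 for the beta-glucuronidase gene Gusb. Sgsh, a heparan sulfatase, had 185, 265 and 74 counts in KO and 323, 185 and 152 counts in WT and a log2 fold change of -0.12 (SE 0.61). Of the annotated exon length of Sgsh, 21.6% overlaps Card14 on the other strand.

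Of the lipid-handling proteins, Lipa, the acid lipase that frees cholesterol and fatty acids from lipoproteins and lipid droplets, had 73.7, 63.8 and 65.8 CPM in KO and 64.8, 47.7 and 58.7 CPM in WT. KO replicate 2 lay just below WT replicate 1, so the groups overlapped narrowly. The log2 fold change was 0.25 (SE 0.16, unadjusted p 0.169 by edgeR) and stayed between 0.13 and 0.35 when single libraries were left out. Psap had 1090, 1082 and 1027 CPM in KO and 1158, 1015 and 1226 CPM in WT (log2 fold change -0.09, SE 0.13). Plbd2, a phospholipase-like lumen protein, had 147, 147 and 120 CPM in KO and 173, 127 and 90.0 CPM in WT. WT replicates 1 and 3 were the highest and lowest libraries for Plbd2, and its log2 fold change was 0.09 (SE 0.24). Neither gene separated the groups.

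**Figure D3:**
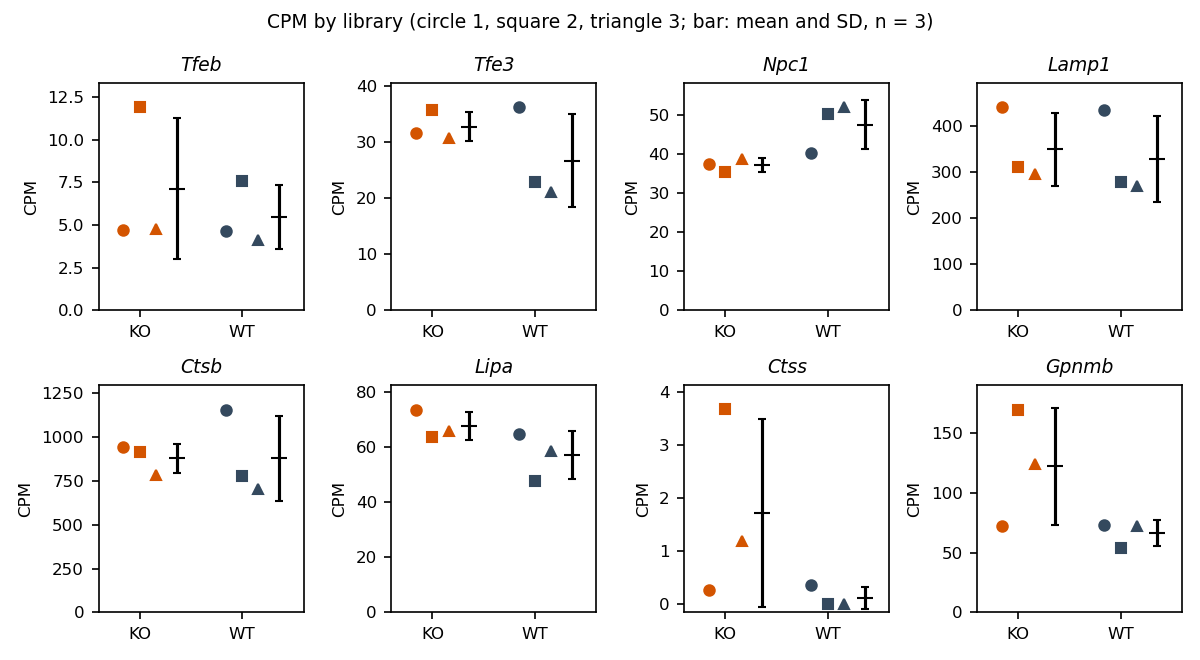
CPM in each library for 7 lysosomal genes and for Gpnmb, a further target of MiT/TFE factors named below (symbols mark replicates 1 to 3, bars give mean and SD, n = 3 per group). Npc1 is lower in each KO library (35.4 to 38.8 CPM) than in each WT library (40.3 to 52.0 CPM), while replicate 1 is the highest library of both groups for Lamp1 and Ctsb.

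All 5 V-ATPase genes had negative log2 fold changes, from -0.14 to -0.01, and none passed the test. The V-ATPase is the pump that acidifies the lysosome. Its membrane sector subunit Atp6v0d1 had 124, 110 and 103 CPM in KO and 126, 101 and 128 CPM in WT (log2 fold change -0.08, SE 0.15). Among the subunits of the ATP-hydrolysing sector, Atp6v1b2 had 91.7, 93.0 and 120 CPM in KO and 104, 112 and 120 CPM in WT (-0.14, SE 0.15). Atp6v1h, the regulatory subunit, had 85.5, 73.2 and 67.9 CPM in KO and 78.6, 86.7 and 80.8 CPM in WT (-0.12, SE 0.14). Groups overlapped for all of these. The catalytic subunit Atp6v1a had -0.12 (SE 0.23) and the accessory protein Atp6ap1 -0.01 (SE 0.14). The negative signs held under both other scalings, but without WT replicate 1 Atp6v1a turned to 0.03 and Atp6ap1 to 0.07, and without KO replicate 2 Atp6ap1 turned to 0.05. Among the 15 other V-ATPase subunits that passed the filter, 6 were positive and 9 negative, with a median of -0.03.

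Members with a CACGTG in their promoter window lay on both sides of 0, as did those without one. The 13 with it, among them Lamp1 with its 4 copies, had 6 positive and 7 negative log2 fold changes, a median of -0.01 and a range of -0.24 to 0.17. The 17 with a window but without CACGTG had 9 positive and 8 negative values and a median of 0.02. In each set 0 genes had an unadjusted p under 0.05 in edgeR's test.

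Many members also differed between libraries of the same group. WT replicate 1 held the highest value of all 6 libraries for 15 of the 36 genes (41.7%), where it was highest for 14.1% of all genes tested, and the library labelled WT replicate 2 was highest for 1 gene, Atp6v1h. This share was not computed for genes of like level. Within the groups, replicate 1 was the highest library of both KO and WT for 13 members (36.1%), against 18.0% of all genes tested and 28.8% of the 6287 genes at or above the members' lower quartile. These were Lamp1, Cd63, Ctsa, Ctsb, Ctsd, Ctsh, Ctsz, Gaa, Gusb, Hexa, Lipa, Atp6v1a and Atp6ap1. This grouping was noticed after the values were seen. Without WT replicate 1 the median log2 fold change of the 36 members was 0.12, and without any other library it lay between -0.07 and 0.06. The matching medians over all genes were not computed.

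Lamp1 gives the clearest case, with 441, 311 and 297 CPM in KO and 436, 280 and 270 CPM in WT. Both replicate 1 libraries stood about alike and apart from the other 4. Ctsb had 940, 913 and 785 CPM in KO and 1156, 778 and 704 CPM in WT. Atp6v1a had 382, 294 and 270 CPM in KO and 408, 244 and 375 CPM in WT, so WT replicate 3 was also high for this gene. Ctsl went the other way, with its lowest value in replicate 1 of both groups. In the same libraries, reads without a feature were fewest, at 11.57% of reads in KO replicate 1 and 11.15% in WT replicate 1, against 14.64% to 17.02% elsewhere. Summed smooth muscle and pericyte markers were highest there as well, with 1037 CPM for KO replicate 1 and 1318 CPM for WT replicate 1, against 743 to 803 CPM elsewhere. That sum was carried by Acta2, smooth muscle actin, which had 739.9 CPM (KO replicate 1) and 981 CPM (WT replicate 1), against 260.2 to 504 CPM elsewhere. The 9 other markers summed to 297, 506 and 457 CPM in KO and 337, 489.9 and 264 CPM in WT, without that pattern. Cell cycle markers were high in KO replicate 1 (490.1 CPM), WT replicate 1 (236 CPM) and WT replicate 3 (236 CPM). Elsewhere they summed to 38.5 to 48.1 CPM. Immediate early genes were lower in those libraries, at 5622 to 15820 CPM, against 30880 to 38470 CPM elsewhere. The part of any of these in the lysosomal values was not tested.

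**Figure D4:**
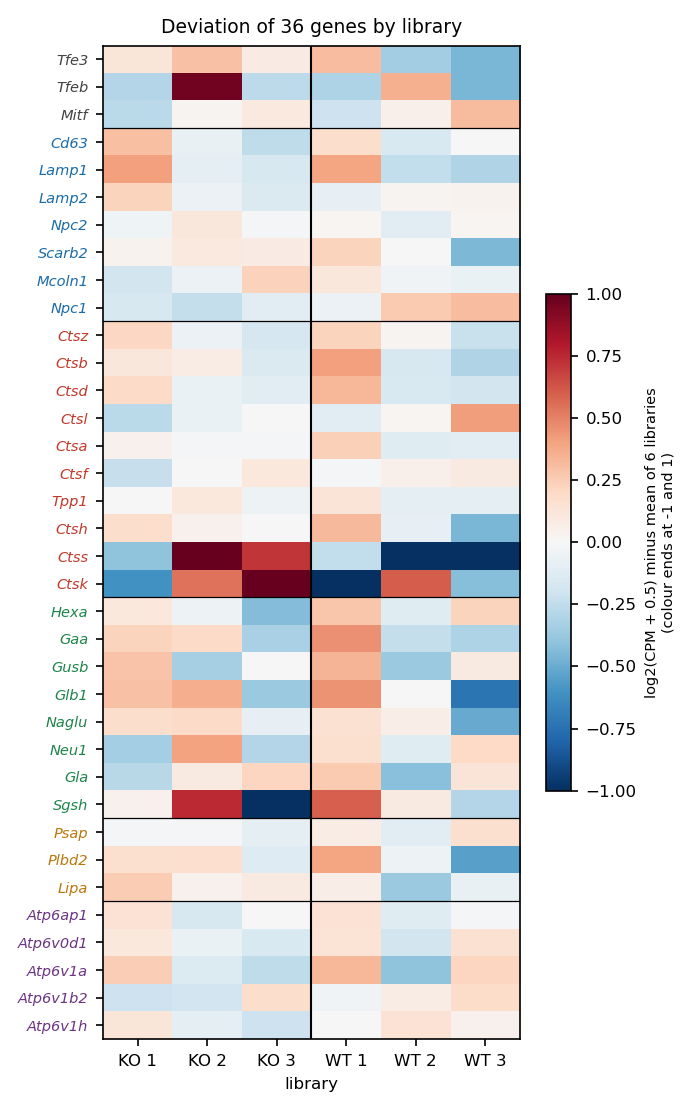
Deviation of log2(CPM + 0.5) from each gene's mean over the 6 libraries, for 36 genes (rows, by class) and 6 libraries (columns, KO left of WT), with colours ending at -1 and 1. Red cells gather in WT replicate 1, the highest library for 15 genes, while Ctss, Ctsk, Tfeb and Sgsh vary most.

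Further lysosomal genes, here with genes that control TFEB or are its targets in autophagy or elsewhere (Gpnmb, Ppargc1a), had values like the members'. They came in 6 lists of 108 genes in all. Of these, 105 passed the filter, 56 with positive and 49 with negative log2 fold changes and a median of 0.01. By edgeR 0 were called at an adjusted p under 0.05, and 3 (2 higher and 1 lower in KO) had an unadjusted p under 0.05, where 2.09% of all genes did. That count was 0 without KO replicate 2, 0 without the library labelled WT replicate 2 and 7 without WT replicate 1, where 1.62%, 3.08% and 3.50% of all genes had such a p. DESeq2 and limma voom also called 0 and each gave 3 at an unadjusted p under 0.05. The 3 were Gpnmb, Naaa and Ppp3r1. Laptm5, given above with the leukocyte markers (unadjusted p 0.00261 by edgeR), was not in these lists.

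Gpnmb, a transmembrane glycoprotein induced by MiT/TFE factors in macrophages and melanocytes, had 72.5, 169.6 and 124 CPM in KO and 73.3, 53.8 and 72.2 CPM in WT. KO replicates 2 and 3 stood above every WT library, and KO replicate 1 lay within the WT range. The log2 fold change was 0.88 (SE 0.31, unadjusted p 0.0246 and adjusted p 0.999976 by edgeR), 1.14 without KO replicate 1 and 0.55 without KO replicate 2. Naaa, an acid amidase of the lysosome, had 10.7, 8.44 and 12.2 CPM in KO and 15.6, 20.6 and 16.2 CPM in WT, without overlap (-0.74, SE 0.25, unadjusted p 0.0194 and adjusted p 0.999976 by edgeR). Ppp3r1, the regulatory subunit of the TFEB phosphatase calcineurin, had 156, 128 and 125 CPM in KO and 112, 108 and 90.3 CPM in WT. Its groups did not overlap either (0.40, SE 0.15, unadjusted p 0.0332 and adjusted p 0.999976 by edgeR). Clcn7, a chloride-proton exchanger, and Rptor, the mTORC1 subunit that recruits substrates, were the other genes of these lists without overlap, with log2 fold changes of 0.20 (SE 0.16, and 0.06 without KO replicate 2) and 0.18 (SE 0.18). In all, 3 of the 105 lay wholly higher in KO and 1 wholly lower, where 3.43% and 3.12% of all genes did.

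By list, the 31 other hydrolases and activators had 20 positive and 11 negative values, with a median of 0.10, and Manba, a beta-mannosidase, at -1.01 (SE 0.63, -1.43 without WT replicate 1 and -0.32 without WT replicate 3). The 20 other membrane proteins split 10 to 10, with Tpcn2, an endolysosomal cation channel, at 0.45 (SE 0.33, 0.78 without WT replicate 1 and 0.23 without KO replicate 3). Among other V-ATPase subunits, Tcirg1 had 0.39 (SE 0.29, 0.63 without WT replicate 1 and 0.15 without WT replicate 3) and Atp6v0a1 0.28 (SE 0.18, 0.18 without KO replicate 3). The 10 genes that sort enzymes to the lysosome split 5 to 5, with Sorl1, a sorting receptor, at -0.28 (SE 0.18, and -0.16 without KO replicate 1) and Gga3, an adaptor of mannose 6-phosphate receptors, at 0.35 (SE 0.26, 0.18 without KO replicate 2 and 0.54 without WT replicate 1). Of the 20 genes of mTORC1 and TFEB control, 11 were positive and 9 negative, with Rragd, a Rag GTPase and known TFEB target, at 0.43 (SE 0.30) and 0.03 without KO replicate 1. The 9 autophagy and other targets of TFEB that passed the filter had 4 positive and 5 negative values and a median of -0.06. Vps18, an autophagy gene of that list, had -0.36 (SE 0.29, -0.59 without KO replicate 1 and -0.15 without WT replicate 1). With all 6 libraries, the smallest unadjusted p of these named genes was 0.154 by edgeR, for Manba.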

How the data were processed

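RNA-seq was measured in 3 KO and 3 WT libraries. The authors deposited raw whole-number read counts per gene, without normalization. GRCm38 is the build named in the submitters' processing notes, which list STAR 2.6.0c and HTSeq 0.6.1p2 beside the read trimmers cutadapt 2.5 and Trim Galore 0.5.0, and also DESeq2 and edgeR. For the counting, neither strand setting nor annotation release nor the treatment of overlapping genes was found (not given in the sources used here). Summary rows were left out: reads without a feature were 11.15% to 17.02%, ambiguous reads 1.21% to 1.42% and multiply aligned reads 14.82% to 24.57%. Symbols, positions and exon lengths came from GENCODE M21 (49399 of 49652 rows matched).

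KO was compared with WT in R 4.3.3 by the quasi-likelihood test of edgeR 4.0.16 (robust, TMM, its filter on low counts, prior count 0.125, no covariate), with Benjamini-Hochberg adjustment over 18832 genes and a threshold of 0.05. SE came from the QL F statistic (effect size over its root). Depth was 41410136 to 56606886 gene counts, and the spread between 3 libraries a group enters every interval. Alternatives were DESeq2 1.42.0, voom of limma 3.58.1, RLE and upper-quartile scaling, no filter, a replicate block and leaving out each library.

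Members and lists were chosen with earlier results of these data known. All 36 members are named, with library values for the factors, the 3 smallest p per class and genes without overlap. Of each further list, called genes or else the 2 with the smallest p are named. Rptor, Lamp1, Ctsb and Atp6v1a library values and the named markers were picked after values were seen.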

Additional observations from a re-analysis of the deposited data

How the results depend on the processing

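In every setting tried (RLE and upper-quartile scaling, no filter, a replicate block, DESeq2, limma voom, and each library left out) 0 of the 36 members were called. Over all genes DESeq2 called 24, where all other settings called 0. Genes at an unadjusted p under 0.05 numbered 393, against 864 without the filter, 855 by DESeq2 and 324 to 818 with a library left out. Members at that threshold numbered 0, against 1 without the filter, 1 by DESeq2 (Ctss both times) and 0 to 3 with a library left out, and further lysosomal genes 3, against 0 to 7. The cause of these shifts was not tested.

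Signs turned for genes near 0: Mcoln1 to -0.0035 (RLE), -0.0107 (upper-quartile), -0.0234 (no filter), -0.0071 (replicate block), -0.0054 (DESeq2) and -0.0028 (voom), Gla to -0.0037 (upper-quartile), -0.0205 (no filter) and -0.00013 (DESeq2), Lamp2 to -0.0013 (no filter). With the replicate block Ctsa turned to 0.0029, Ctsb to 0.0302 and Ctsd to 0.0057, and with voom to 0.0012, 0.0268 and 0.0035.

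With a library left out, the log2 fold change ranged from -0.22 to 0.70 for Tfeb, -0.25 to 0.036 for Mitf, -0.11 to 0.35 for Lamp1, -0.091 to 0.096 for Lamp2, -0.17 to 0.11 for Cd63, -0.044 to 0.28 for Scarb2, -0.13 to 0.090 for Mcoln1, -0.018 to 0.075 for Npc2, -0.070 to 0.12 for Ctsa, -0.14 to 0.25 for Ctsb, -0.11 to 0.18 for Ctsd, -0.16 to 0.0092 for Ctsf, -0.063 to 0.35 for Ctsh, -0.13 to 0.097 for Ctsz, -0.023 to 0.12 for Tpp1, -0.10 to 0.33 for Gaa, -0.12 to 0.45 for Glb1, -0.18 to 0.15 for Gla, -0.21 to 0.13 for Gusb, -0.0080 to 0.30 for Naglu, -0.42 to 0.0088 for Neu1, -0.75 to 0.29 for Sgsh, -0.12 to 0.35 for Plbd2, -0.31 to 0.029 for Atp6v1a and -0.085 to 0.066 for Atp6ap1. It kept its sign with 0.15 to 0.58 for Tfe3, -0.46 to -0.28 for Npc1, 0.39 to 2.37 for Ctsk, -0.34 to -0.065 for Ctsl, -0.37 to -0.10 for Hexa, -0.16 to -0.028 for Psap, 0.13 to 0.35 for Lipa, -0.18 to -0.021 for Atp6v0d1, -0.28 to -0.071 for Atp6v1b2 and -0.22 to -0.049 for Atp6v1h, and Ctss stayed positive.

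Deviations of same-numbered libraries correlated at 0.245, 0.105 and -0.072 over genes, and those of differently numbered libraries at -0.285 to 0.207. The replicate 1 libraries had the highest of these values, 0.245. The labels do not say that shared numbers pair libraries, so the main fit did not pair them. The replicate block gave 0 called genes and 515 at an unadjusted p under 0.05, and changed no call among members.

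With 3 libraries a group, the intervals of Tfeb, Sgsh, Ctsk and Ctss reached past a 2-fold change. These data thus set no such limit for them. Their biological coefficients of variation were 0.47, 0.57, 0.97 and 1.41. The median was 0.20 for the members and 0.38 over all genes tested, where edgeR's common value was 0.52.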
